A study of Gallus gallus with 16 samples.

Results

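Very long genes were followed across stages and sorted populations of the chick vagal region. A gene was counted as very long when the distance between its smallest exon start and its largest exon end was at least 300 kb in the annotation of the deposited count table (galGal5 build). Genes on chromosomes W, Z and 16 were left out, and at least 10 counts in at least 2 of the 16 libraries were required. The rule used no difference between groups. The rule kept 100 of the 24881 genes in the table; 5 more genes of that length failed the count rule, and 40 lie on the chromosomes left out.

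RNA was sequenced from cells sorted out of the dissected vagal region of wild-type chicken embryos at Hamburger-Hamilton (HH) stages HH10, HH18 and HH25. All embryos, those of the negative cells included, were electroporated with the reporters NC2 and E2. This was done at HH4 for the HH10 groups and at HH8/9 for the HH18 and HH25 groups. A difference between HH10 and either later stage, HH18 or HH25, therefore cannot be told apart from the time of electroporation. As background, the reporters read enhancers of neural crest transcription factors, FOXD3 in the case of NC2 and SOX10 in the case of E2. E2 cells carried the E2 signal and not the NC2 signal (NC2-, E2+), DP cells carried both (NC2+, E2+) and negative cells carried neither (NC2-, E2-); each group had 2 libraries, and there was no DP group at HH10. The name HH10 follows the sample records, whereas the column names of the table have HH12 for the same groups. Libraries carry the numbers of the table, which are 1 and 3 in the HH10 groups, 2 and 3 in HH25 DP cells, and 1 and 2 elsewhere. The labels name no cell type for the negative cells, and the markers of crest and other cell types could not be checked because the files do not pair the gene identifiers with names. In sorted bulk samples, fewer cells that express a gene and less RNA per cell cannot be told apart.

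As background, very long vertebrate genes owe their length to introns and not to exons. RNA polymerase takes hours to cross them, so that a transcript can be completed only when there is time between cell divisions. Many very long genes of vertebrates code for adhesion molecules, receptors, ion channels and large cytoskeletal proteins of neurons and muscle, and the vagal neural crest gives rise to the neurons and glia of the gut. Counts over exons report the RNA that was present and say nothing about the speed of transcription. Because none of the 24881 identifiers was found in the reference table of named chicken genes, no member is given a name or a role.

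The very long genes spanned 300.213 to 996.094 kb, with a median of 368 kb; 64 of them were under 400 kb and 14 were 500 kb or longer. Their exons covered a median of 1.01% of the span, against 17.5% over the 14676 genes tested. The exon length they shared out over that distance was not small, with a median of 3975 bases (range 667 to 16301) against 1872 over all genes tested. A median of 22 separate exon intervals (4 to 102) compared with 8 over all genes tested. The largest stretch without an exon had a median of 110 kb and reached 323 kb, and it took up a median of 26.7% of the span, close to the 28.4% over all genes tested. Chromosomes 1 to 8 held 83 of the 100 very long genes and 55.0% of the genes tested. Chromosome 2 held 22, chromosome 1 held 19 and chromosome 3 held 12, and 18 chromosomes held at least 1.

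The longest member, ENSGALG00000016281, lies on the plus strand at chr1:114486908-115483002 and has 78 exon intervals with 13623 exon bases. ENSGALG00000036909 follows at 838 kb (chr8:22774073-23612126, minus strand) with 14 exon intervals and 1640 exon bases. ENSGALG00000011562 (chr3:44611057-45288689, plus strand) spans 678 kb with 12 intervals, ENSGALG00000001153 (chr19:1327382-1987436, minus strand) 660 kb with 19 and ENSGALG00000009107 (chr3:6563215-7213964, plus strand) 651 kb with 25. Exon intervals gathered near the 3' end in ENSGALG00000001153 and lay along the span, with gaps of unequal width, in the other four.

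**Figure D1:**
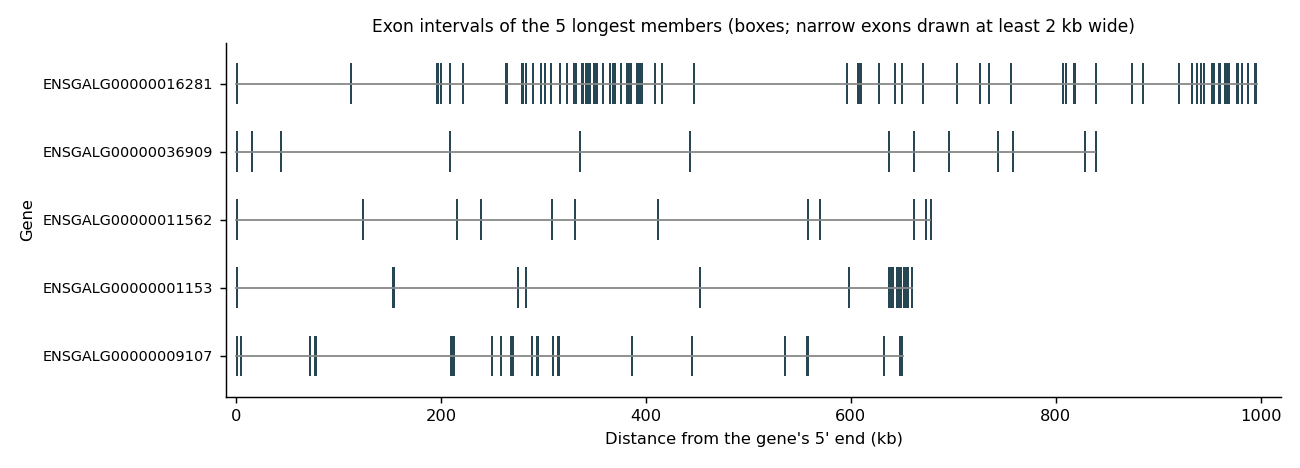
Exon intervals (boxes) of the 5 longest very long genes along the distance in kb from the 5' end of each gene, with the grey line as the gene's span. The 78 intervals of ENSGALG00000016281 lie in groups separated by wide stretches without an exon, and the intervals of ENSGALG00000001153 gather near its 3' end.

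Another gene lay inside the span of 54 of the very long genes, and 43 overlapped no other gene. Whether reads were counted by strand is not given in the sources used here, so reads cannot be assigned between genes where exons meet. Exon bases were shared with another gene in 6 members, and in 1 of them, ENSGALG00000045368, the share was over 10%. The rule for length is a threshold on a continuum. With levels as TMM-scaled counts per 1e6 counts (CPM), the genes just inside it were ENSGALG00000032577 (300.213 kb, mean level 56.8 CPM), ENSGALG00000010958 (300.467 kb, 8.90) and ENSGALG00000008926 (300.937 kb, 3.6). Just outside it lay ENSGALG00000035492 (299.162 kb, 37.1), ENSGALG00000002744 (298.341 kb, 1.66) and ENSGALG00000015944 (297.217 kb, 12.8), so levels on both sides of the threshold differed widely from gene to gene.

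Errors of levels are SD over n = 2 libraries. Libraries held between 4032540 and 45313160 counts; the 2 shallowest were those of HH18 negative cells. No label says that a group's libraries are separate pools of embryos, and the p-values rest on how far the 2 libraries of a group differ, which could be technical spread. The mean level of a very long gene over the 16 libraries ranged from 0.317 to 1181 CPM with a median of 13.2 CPM, near the 16.8 CPM over all genes tested. Per kb of exon, the scale on which genes can be compared, the median was 2.96 CPM per kb against 8.09 over all genes tested. The mean was at least 5 CPM in 70 members and under 1 CPM in 4, and 54 members had counts in every library. Between 76 members (HH10 E2 library 1) and 99 members (HH18 E2 library 2) had counts in a library. At the depth of the shallowest library, 73.3 to 97.7 members would be seen, a range no narrower than the one observed.

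The highest level per kb of exon belonged to ENSGALG00000004304 (chr10:7176016-7516317, minus strand, 340 kb) at 96.3 CPM per kb, and this gene took 31.0% of all counts of the very long genes. Its level was 1217 and 1425 CPM in HH10 negative, 1212 and 1553 in HH10 E2, 1119 and 1213 in HH18 negative, 1325 and 1150 in HH18 E2 and 703 and 760 in HH18 DP cells. At HH25 it was 936 and 736 CPM in negative, 1396 and 1769 in E2 and 1067 and 1321 in DP cells. The lowest libraries were therefore those of HH18 DP and HH25 negative cells, and the test over all 8 groups did not call the gene (adjusted p = 0.054). It was followed by ENSGALG00000011298 with 85.3 CPM per kb, ENSGALG00000012677 with 57.3, ENSGALG00000009491 with 37.7 and ENSGALG00000034590 with 36.2.

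Summed over all 100 members, the level was highest in HH25 DP cells, at 4694 and 5785 CPM, and next in HH25 E2 cells, at 4275 and 4796 CPM. HH25 negative cells had 3397 and 3418 CPM, below every other HH25 library. The HH18 libraries had 3069 and 2737 CPM in negative, 3307 and 3559 in E2 and 3316 and 2657 CPM in DP cells. The HH10 libraries had 3545 and 4218 CPM in negative and 3478 and 4231 CPM in E2 cells, so the ranges of these stages overlapped. The ranges of HH25 DP and HH25 E2 overlapped, and neither overlapped the range of any other group with TMM scaling. Without scaling, HH10 E2 library 3 (4580 CPM) and HH10 negative library 3 (4523 CPM) exceeded HH25 E2 library 1 (4361 CPM). Without the 3 members with the most counts the mean sum was 3399 ± 550 CPM in HH25 DP, 2373 ± 105 in HH25 E2 and 2296 ± 367 in HH10 negative cells, so that HH25 E2 no longer stood apart from HH10, whereas HH25 DP did. No test was made on these sums, since an exact permutation test of 2 against 2 libraries cannot give a two-sided p below 0.33.

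**Figure D2:**
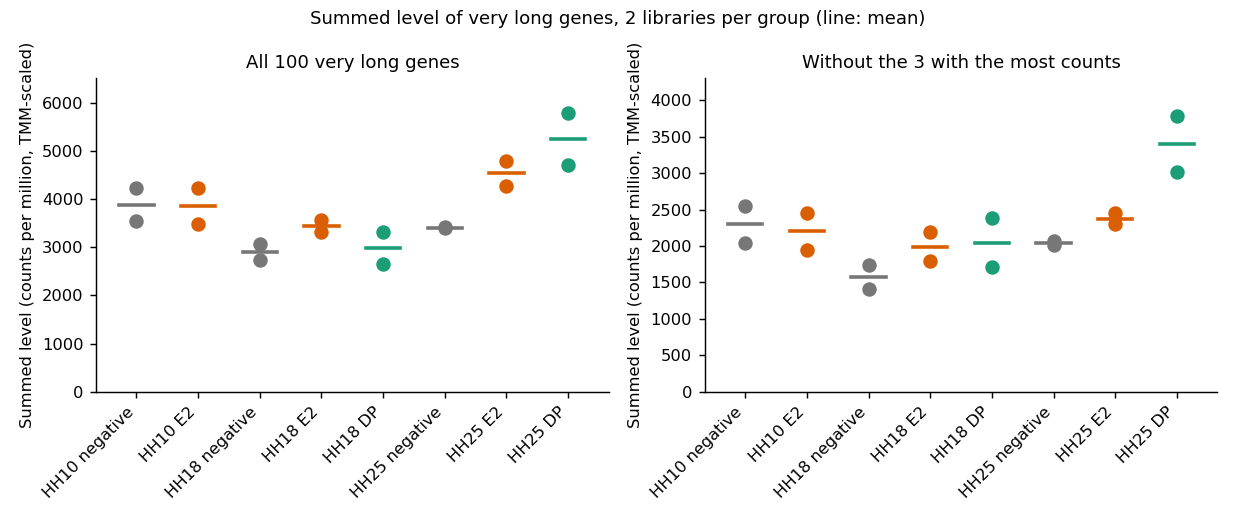
Summed level in TMM-scaled CPM of the very long genes per library, for all 100 (left) and without the 3 with the most counts (right); each point is 1 library, each line the mean of 2, and colours mark negative, E2 and DP cells. Both HH25 DP libraries (4694 and 5785 CPM) lie above all HH10 and HH18 libraries in both panels.

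Gene by gene, 30 very long genes had their highest mean in HH25 DP cells (15.5% of all genes tested did) and 17 in HH25 E2 cells (10.7%). HH25 negative cells were the highest group for 14 members (22.9% of all genes tested) and HH18 negative cells for 1 (8.35%). The lowest mean fell in HH10 E2 cells for 22 members, in HH18 negative cells for 20 and in HH25 DP cells for 1, against 23.1%, 8.17% and 10.3% of all genes tested. These shares are descriptions, with no test.

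A difference anywhere among the 8 groups was called in 30 of the 100 very long genes at an adjusted p below 0.05 (edgeR quasi-likelihood F test), beside 29.5% of all genes tested, so as a class they were called about as often as other genes. At an unadjusted p below 0.05 there were 49, beside 43.7%. Of the 30, 14 were highest in HH25 DP cells and 10 were lowest in HH10 E2 cells. Of all genes tested, called or not, 15.5% and 23.1% were. The shares among all called genes were not computed, so these counts are not read as particular to very long genes. All 6 HH25 libraries lay above all 4 HH10 libraries in 8 of the 30 and below them in 0. Over all members the same was true of 12.0% and 3.0%, beside 6.66% and 5.83% of all genes tested.

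**Figure D3:**
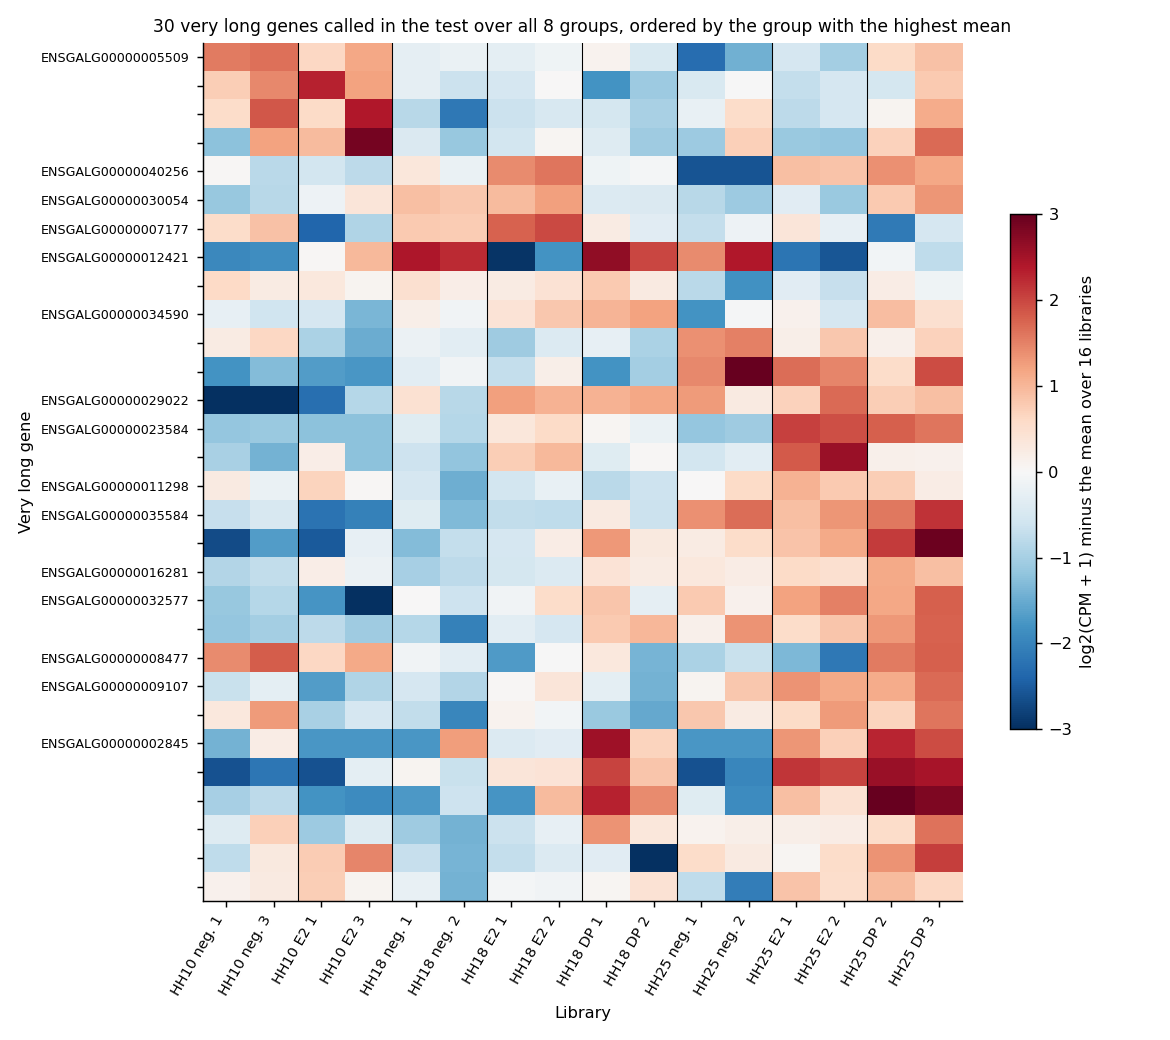
Level of the 30 very long genes called over all 8 groups, as log2(CPM + 1) minus the mean of the gene over 16 libraries (colour), with libraries in columns and genes in rows ordered by the group of the highest mean; rows of genes named in the text carry their identifier. The 14 genes at the bottom were highest in HH25 DP cells, and the replicate columns of a group often differ in shade.

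In comparisons of 2 groups, 27 very long genes were called in at least 1 of 12 (31.5% of all genes tested were), 14 of them in 1 comparison, 8 in 2 and 5 in 3 or more. There were 45 calls, 36 of a higher level in the later stage or in the labelled or DP cells and 9 of a lower one; over all genes tested 53.2% of the calls were higher. Stage comparisons called 21 members (19.7% of all genes tested), population comparisons 16 (26.4%), and 10 were in both kinds (14.6%). In no test of these or of the 8 groups were 63 members called, beside 62.7% of all genes tested. The shares of members called are thus close to or below those over all genes. The share of higher calls, 80% of the 45, was above the 53.2% over all genes, and this difference was not tested. At an unadjusted p below 0.05, members exceeded the share over all genes most in HH10 E2 against negative cells (21, beside 11.8%) and in E2 cells from HH10 to HH18 (32, beside 22.8%). They fell short most in HH25 DP against E2 (12, beside 25.9%) and against negative cells (28, beside 37.5%). These excesses and shortfalls were not tested.

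ENSGALG00000035584 (chr7:578995-896831, minus strand, 318 kb, 67 exon intervals) had the smallest adjusted p of the class over the 8 groups (9.3e-05). Its level was 62.1 and 72.4 CPM in HH10 negative, 21.2 and 24.3 in HH10 E2, 78.8 and 39.8 in HH18 negative, 60.1 and 59.3 in HH18 E2 and 123 and 64.6 in HH18 DP cells. At HH25 it was 263 and 327 CPM in negative, 191 and 254 in E2 and 304 and 457 in DP cells. Every HH25 library exceeded every earlier one. From HH18 to HH25 the gene rose in negative cells by 2.31 ± 0.40 on the log2 scale (SE, adjusted p = 0.0032) under every alternative run. In DP cells it rose by 2.02 ± 0.40 (adjusted p = 0.027). The DP call ended when any single DP library was left out, and also with only the groups compared.

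**Figure D4:**
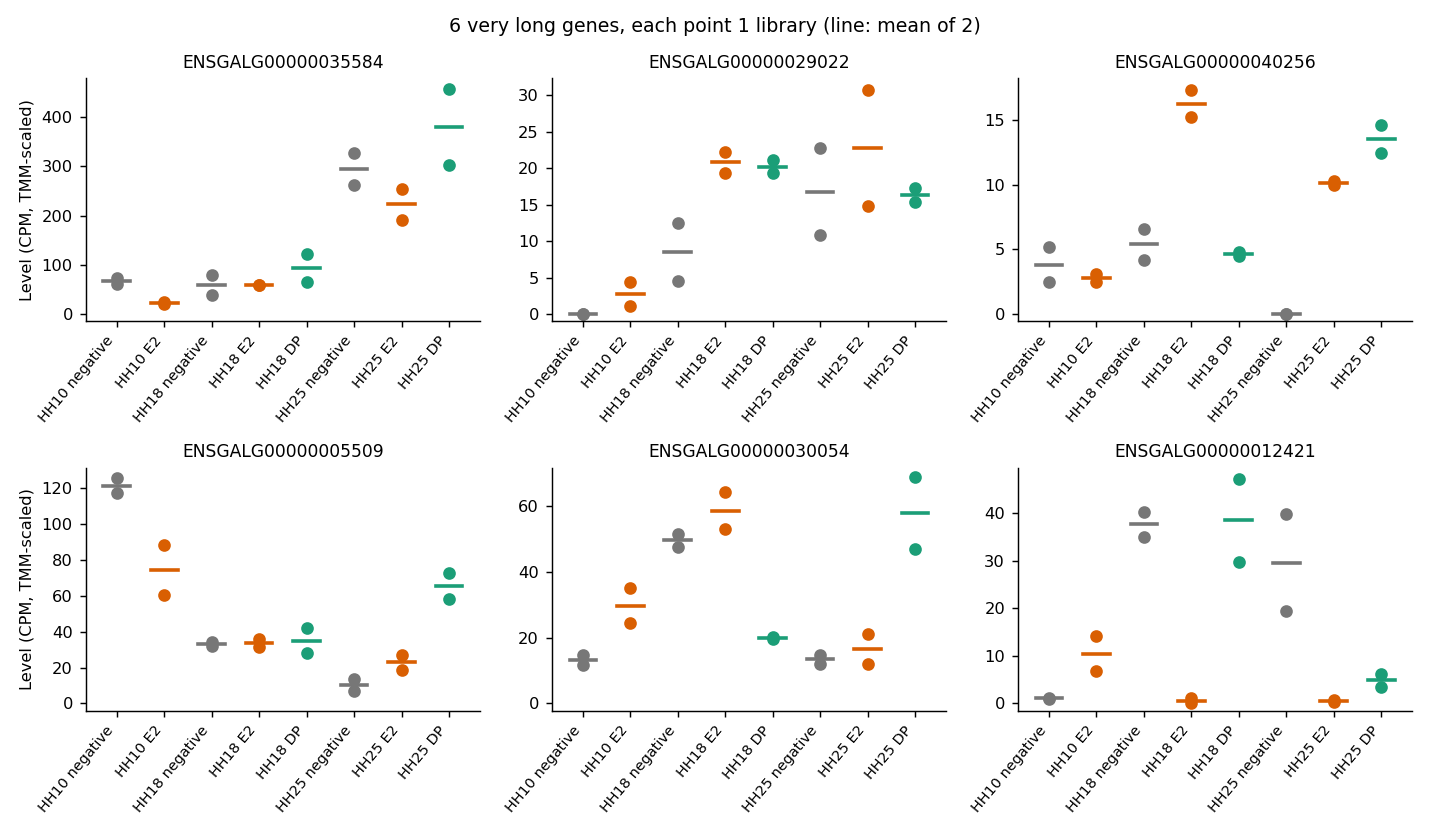
Level in TMM-scaled CPM of 6 very long genes in the 8 groups; each point is 1 library and each line the mean of 2, with grey for negative, orange for E2 and green for DP cells. ENSGALG00000035584 is highest in the 6 HH25 libraries, and ENSGALG00000040256 has no count in either HH25 negative library.

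At HH10, E2 cells were compared with negative cells to ask how cells with the E2 signal differ from cells with neither signal. The test called 1 very long gene, which was higher in E2 cells, beside 1.66% of all genes tested (0.238% higher and 1.42% lower). At an unadjusted p below 0.05 there were 21 members, beside 11.8% of all genes tested. The gene was ENSGALG00000029022 (chr5:35109226-35715442, plus strand, 606 kb), with 0 and 0.0237 CPM in negative and 1.05 and 4.42 CPM in E2 cells. Only 1 count in negative cells stood against 230 in E2 cells, a ratio of 241 with a 95% counting interval of 42.9 to 9577 (adjusted p = 0.0074). The call ended without either negative library, and also with only the groups compared. Below, counts of called members in fits without 1 library or of fewer groups come without the share over all genes in the same fit. They are not read as a change in the members alone. The median log2 fold change of the members was -0.09, beside -0.05 over all genes tested, and it was 0.10 without negative library 3 and -0.96 without E2 library 3. Both E2 libraries were above both negative libraries in 14 members and below in 34, beside 13.2% and 24.4% of all genes tested. The 2 HH10 E2 libraries differed from each other by a median of 1.04 on the log2 scale over the members, beside 0.665 over all genes tested.

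At HH18, E2 cells against negative cells gave 0 called members in edgeR, beside 0.79% of all genes tested. There were 7 members at an unadjusted p below 0.05, beside 8.07%, and 2 in DESeq2, beside 3.74% of the genes with an adjusted p there. The fold changes nevertheless leaned upward. They were positive in 74 members, beside 50.6% of all genes tested, with a median of 0.57 beside 0.01. Both E2 libraries were above both negative libraries in 36 members and below in 9, beside 24.0% and 23.7% of all genes tested. The median was 0.29 without E2 library 2, 0.31 without negative library 2 and 0.99 without negative library 1. The HH18 negative libraries, the shallowest of the series, differed from each other by a median of 0.835 over the members, beside 0.436 over all genes tested; the part of this in the lean was not tested.

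DP cells at HH18 gave 0 called members in edgeR against negative cells, beside 0.463% of all genes tested, and 0 against E2 cells, beside 0.368%. Against negative cells, 12 members had an unadjusted p below 0.05 (8.33% of all genes tested) and 4 were called in DESeq2 (3.31%). Against E2 cells the same counts were 12 (9.04%) and 4 (3.66%). Against E2 cells, DP libraries did not overlap in 18 members upward and 27 downward, beside 15.6% and 19.8% of all genes tested. The median of the members was 0.23 against negative and -0.17 against E2 cells. Those medians were -0.18 without DP library 1 and 0.04 without E2 library 2, so no direction is given for either.

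At HH25, E2 cells differed from negative cells in 6 very long genes, 5 higher and 1 lower, beside 2.88% of all genes tested (1.84% higher and 1.04% lower). The count was 1 without E2 library 1, 1 without E2 library 2 and 0 in a fit of these 4 libraries alone. Both E2 libraries were above both negative ones in 32 members and below in 19, beside 22.6% and 22.2% of all genes tested. ENSGALG00000040256 (chr2:130153028-130517067, plus strand, 364 kb) had no count in either negative library and 10.3 and 9.94 CPM in the E2 libraries, which puts E2 at least 94.1-fold higher when the negative group is given 3 counts in all (adjusted p = 0.0022); the fit of these 4 libraries alone ended the call. ENSGALG00000023584 (chr1:17084630-17502308, plus strand, 418 kb), the member with the shortest exon length, 667 bases in 7 intervals, had 0.0527 and 0.112 CPM in negative and 8.68 and 7.86 CPM in E2 cells. This was a ratio of 115 from 173 against 2 counts, with a counting interval of 31.4 to 959 (adjusted p = 0.030), and the call ended without any 1 of the 4 libraries and with the replicate number as a block (adjusted p at most 0.16).

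Higher in E2 cells at HH25 was also ENSGALG00000012677 (chr2:59246188-59622261, minus strand, 376 kb), with 49.5 and 80.3 CPM in negative and 163 and 217 CPM in E2 cells, a difference of 1.55 ± 0.34 on the log2 scale (adjusted p = 0.025) that was no longer called without E2 library 1, E2 library 2 or negative library 1. The gene that fell was ENSGALG00000012421 (chr7:32874820-33193628, plus strand, 319 kb). It had 19.4 and 39.8 CPM in negative and 0.675 and 0.284 CPM in E2 cells, 54.2-fold lower by pooled counts with an interval of 29.3 to 114 (adjusted p = 0.030), and the call ended without either E2 library. At HH18 its values lay the same way, with 40.2 and 35.1 CPM in negative and 0 and 1.21 CPM in E2 cells, and DP cells had 47.2 and 29.7 CPM.

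The comparison of HH25 DP with negative cells called 13 very long genes, 12 higher and 1 lower. Over all genes tested 23.6% were called, 13.6% higher and 9.96% lower. The median fold change of the members was 0.64 on the log2 scale, beside 0.19 over all genes tested, and 0.27 without DP library 3. The count fell without DP library 3 or without negative library 1, and it rose in another fit without 1 library. With the size factors of DESeq2 the median of all genes shifted by -0.16 and that of the members was 0.48.

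ENSGALG00000005509 (chr8:12568769-12891574, plus strand, 323 kb) had 58.1 and 72.8 CPM in HH25 DP and 7.17 and 13.7 CPM in HH25 negative cells, a difference of 2.66 ± 0.46 on the log2 scale (adjusted p = 0.0016) that was called under every alternative run. ENSGALG00000040256 had 14.6 and 12.5 CPM in DP cells, which against the empty negative libraries is at least 121-fold higher (adjusted p = 0.00056, called under every alternative run). ENSGALG00000002845 (chr6:6694536-7131100, plus strand, 437 kb) had 15.6 and 12.2 CPM in DP cells and was also without counts in the negative libraries. Its DP level was at least 121-fold higher (adjusted p = 0.016), but not called without negative library 1. In all 3 genes the DP libraries were close to each other and far from the negative ones.

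ENSGALG00000008477 (chr1:1421469-1841500, minus strand, 420 kb) stood at 141 and 166 CPM in HH25 DP cells, 24.1 and 29.6 CPM in negative cells and 18.1 and 10.0 CPM in E2 cells. It was higher in DP than in negative cells by 2.51 ± 0.62 (adjusted p = 0.011) and higher than in E2 cells by 3.44 ± 0.65 (adjusted p = 0.018). The first call ended without DP library 3 or negative library 1, and the second without either DP library or E2 library 2. At HH10 the 2 negative libraries, with 129 and 170 CPM, lay on either side of the HH25 DP libraries, and the E2 libraries had 74.0 and 105 CPM.

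ENSGALG00000030054 (chr2:8821485-9397176, minus strand, 576 kb) had 47.0 and 68.9 CPM in HH25 DP, 14.7 and 12.1 CPM in negative and 21.1 and 11.9 CPM in E2 cells. DP exceeded negative cells by 2.11 ± 0.48 (adjusted p = 0.0073), a call that ended without DP library 3 or with only the groups compared. DP exceeded E2 cells by 1.81 ± 0.48 (adjusted p = 0.042). That call ended without any 1 of the 4 libraries, with no filter or with only the groups compared. At HH18 the order was another, with 51.7 and 47.7 CPM in negative, 53.0 and 64.4 in E2 and 20.2 and 19.7 CPM in DP cells. ENSGALG00000023584 (6.61 ± 0.72 CPM in DP, 0.0825 ± 0.042 in negative cells, a ratio of 88.4 with an interval of 24.3 to 732, adjusted p = 0.0084, ended without negative library 1) and ENSGALG00000012677 (176 ± 49 and 64.9 ± 22 CPM, 1.44 ± 0.34 on the log2 scale, adjusted p = 0.0082, ended without DP library 2 or negative library 1) were higher in DP cells as they were in E2 cells, against the same negative libraries. The call of ENSGALG00000012677 also ended with only the groups compared.

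The member that fell in HH25 DP cells was ENSGALG00000042645 (chr7:12818948-13182726, minus strand, 364 kb), with 12.7 and 17.4 CPM in DP and 67.1 and 44.1 CPM in negative cells (-1.89 ± 0.53 on the log2 scale, adjusted p = 0.021). The call ended without DP library 2, DP library 3 or negative library 1, and also with only the groups compared. Against HH25 E2 cells, DP cells differed in 2 very long genes, ENSGALG00000008477 and ENSGALG00000030054, beside 6.49% of all genes tested (3.88% higher and 2.61% lower), and the median of the members was 0.35 beside 0.17. That median was 0.00 without DP library 3, and the count was 1 without E2 library 1 and 0 without any 1 of the other 3 libraries.

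Whether the difference between DP and negative cells changed from HH18 to HH25 was tested directly. It was called in 7 very long genes, 6 with a difference that moved upward and 1 with a difference that moved downward, beside 14.5% of all genes tested (8.67% and 5.8%). With the size factors of DESeq2 the split was 3 and 1. Of these 7, ENSGALG00000040256 and ENSGALG00000030054 were called under every alternative run. The count was 2 without HH25 DP library 3 or HH18 negative library 2, 3 without HH25 DP library 2 or HH18 negative library 1, and 4 without HH18 DP library 2 or HH25 negative library 1. The change in the difference between DP and E2 cells was called in 0 members in edgeR, beside 0.184% of all genes tested, in 7 at an unadjusted p below 0.05, beside 15.96%, and in 2 in DESeq2, beside 6.08%. The change between E2 and negative cells was called in 0 members in edgeR, beside 0.0204%, in 9 at an unadjusted p below 0.05, beside 10.4%, and in 3 in DESeq2, beside 2.89%.

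The comparisons of stages ask how each population changed with development. In E2 cells, 4 very long genes rose from HH10 to HH18 and none fell, beside 4.84% of all genes tested (3.8% higher and 1.04% lower). ENSGALG00000007177 (chr12:12750103-13123099, plus strand, 373 kb) went from 4.05 and 13.0 CPM to 89.4 and 102 CPM, a rise of 3.48 ± 0.69 on the log2 scale (adjusted p = 0.010, ended without HH10 E2 library 1), and both HH18 E2 libraries were above all other libraries of the series. ENSGALG00000032577 (chr9:20063010-20363223, plus strand) went from 11.4 and 3.57 CPM to 38.5 and 61.6 CPM, a rise of 2.75 ± 0.60 (adjusted p = 0.017, ended without HH10 E2 library 3 or HH18 E2 library 2), and continued to 96.7 and 121 CPM in HH25 E2 cells. ENSGALG00000023584 had no count in HH10 E2 cells and 1.98 and 2.48 CPM at HH18, a rise of at least 45.3-fold (adjusted p = 0.011, ended without HH10 E2 library 3).

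The count of 4 was 7 without HH10 E2 library 3 and 0 in a fit of the 4 libraries compared. From HH18 to HH25, E2 cells gave 0 called members in edgeR, beside 0.429% of all genes tested. There were 10 members at an unadjusted p below 0.05, beside 10.7%, and 5 in DESeq2, beside 4.16%. The median was 0.39, beside -0.02 over all genes tested. It was 0.84 without HH18 E2 library 2 and between 0.31 and 0.33 without any 1 of the other 3 libraries compared.

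In DP cells, 1 very long gene was called between HH18 and HH25, ENSGALG00000035584, beside 0.947% of all genes tested. It was no longer called with only the groups compared, nor without any 1 of the 4 DP libraries. The count over the members was then 1 without HH18 DP library 1 and 0 without any of the others. The median of the class was 0.98 on the log2 scale beside 0.16 over all genes tested. Fold changes were positive in 79 members, beside 55.2% of all genes tested. Both HH25 DP libraries lay above both HH18 DP libraries in 51 members and below in 8, beside 29.0% and 19.6% of all genes tested. The median was 0.61 without HH25 DP library 3, the deeper of that pair, and 1.28 without HH18 DP library 1.

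Negative cells changed from HH10 to HH18 in 3 very long genes, 2 higher and 1 lower, beside 2.44% of all genes tested (1.96% and 0.477%). The count was 1 without any 1 of the 4 libraries. ENSGALG00000029022 went from 0 and 0.0237 CPM to 12.4 and 4.49 CPM, 107 counts against 1, a ratio of 634 with an interval of 111 to 25271 (adjusted p = 0.0013), under every alternative run. In the libraries of HH18 and HH25 other than HH18 negative library 2 it lay between 10.9 and 30.8 CPM, above all 4 HH10 libraries. ENSGALG00000012421 rose from 0.991 and 1.11 CPM to 40.2 and 35.1 CPM, 36.0-fold with an interval of 27.8 to 47.1 (adjusted p = 0.044). ENSGALG00000005509 fell from 117 and 125 CPM to 31.9 and 33.9 CPM (-1.88 ± 0.44 on the log2 scale, adjusted p = 0.038). Both calls ended without any 1 of the 4 libraries, in which the values of a group were close together. The median of the members was -0.39 beside -0.05 over all genes tested. It was -0.09 without HH10 negative library 3, -0.23 without HH18 negative library 2 and -0.72 without HH18 negative library 1.

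From HH18 to HH25, negative cells differed in 15 very long genes, 9 higher and 6 lower, beside 14.8% of all genes tested. Over all genes lower calls outnumbered higher ones (9.46% against 5.32%), the reverse of the very long genes. Genes under 10 kb also had more higher than lower calls (8.30% against 5.97%), whereas each class from 10 to 300 kb had more lower ones. These splits were not tested. The count was 4 and 3 without HH18 negative library 1 and 2, 5 without HH25 negative library 1, and 6 in a fit of the 4 libraries alone. The median of the members was 0.49 beside -0.04 over all genes tested. Without HH25 negative library 2 it was -0.07, beside -0.27 over all genes, so the direction of the class median rested on that library. It was 0.10 without HH18 negative library 2 and 0.88 without HH18 negative library 1.

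Besides ENSGALG00000035584, 5 of the named members rose in negative cells. ENSGALG00000001153 went from 12.0 and 5.05 CPM to 55.9 and 48.2 CPM (2.59 ± 0.71 on the log2 scale, adjusted p = 0.026), and ENSGALG00000036789 (chr8:17407355-17789217, minus strand, 382 kb) from 27.5 and 18.5 CPM to 95.7 and 146 CPM (2.39 ± 0.69, adjusted p = 0.033). ENSGALG00000042645 went from 13.8 and 10.4 CPM to 67.1 and 44.1 CPM (2.20 ± 0.54, adjusted p = 0.017). In each of these the HH25 libraries were well above the HH18 ones. The longest gene, ENSGALG00000016281, rose from 31.7 and 36.5 CPM to 80.0 and 74.6 CPM (1.18 ± 0.32, adjusted p = 0.028), and ENSGALG00000011298 (chr2:37655934-37978166, plus strand, 322 kb) from 132 and 67.9 CPM to 190 and 281 CPM (1.23 ± 0.38, adjusted p = 0.042). All 5 calls ended without HH18 negative library 1, without HH18 negative library 2 or without HH25 negative library 1, and those of ENSGALG00000036789, ENSGALG00000016281 and ENSGALG00000011298 also without HH25 negative library 2. Those of ENSGALG00000016281 and ENSGALG00000011298 also ended with no filter or with only the groups compared.

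Falling in negative cells were ENSGALG00000040256, which went from 6.57 and 4.21 CPM to 0 in both libraries and was at least 50.1-fold lower (adjusted p = 0.0018, under every alternative run), and ENSGALG00000030054, from 51.7 and 47.7 CPM to 14.7 and 12.1 CPM (-1.89 ± 0.48, adjusted p = 0.020, ended without any 1 of the 4 libraries). ENSGALG00000005509 (-1.66 ± 0.45, adjusted p = 0.025), ENSGALG00000012677 (-1.11 ± 0.33, adjusted p = 0.041) and ENSGALG00000002845 (adjusted p = 0.049) fell as well. The first 2 of these calls ended without HH18 negative library 1, HH18 negative library 2 or HH25 negative library 1. With only the groups compared, both of them and that of ENSGALG00000030054 ended as well. The call of ENSGALG00000012677 also ended with the size factors of DESeq2. That of ENSGALG00000002845 rested on 1 library, HH18 negative library 2 with 7.01 CPM, since the other had no count. These 5 genes were also called higher in HH25 DP than in HH25 negative cells, and both comparisons use the same HH25 negative libraries, so the 2 sets of calls are not independent.

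The 5 longest members did not all behave alike. ENSGALG00000001153 had 52.1 ± 5.4, 43.7 ± 1.9 and 31.4 ± 13 CPM in HH25 negative, E2 and DP cells. Its means at HH10 and HH18 ran from 8.54 ± 4.9 CPM in HH18 negative to 23.8 ± 21 CPM in HH10 E2 cells. ENSGALG00000016281 had 34.2 to 74.0 CPM in the 4 HH10 libraries, 31.7 to 85.0 CPM in the 6 HH18 libraries and 74.6 to 141 CPM in the 6 HH25 libraries, highest in HH25 DP cells with 141 and 121 CPM, and was called over the 8 groups (adjusted p = 0.0038). ENSGALG00000009107 was likewise called (adjusted p = 0.0057), with 9.57 to 26.8 CPM at HH10, 11.6 to 42.9 CPM at HH18 and 34.7 to 110 CPM at HH25. ENSGALG00000036909, at 0 to 6.25 CPM, and ENSGALG00000011562, at 0 to 12.0 CPM, were not called (adjusted p = 0.42 and 0.51).

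To see whether 300 kb marks a break, genes of the same chromosomes and count rule were divided by span. The share called over the 8 groups was 28.5% of 6346 genes under 10 kb, 32.3% of 3989 from 10 to 30 kb and 29.3% of 2546 from 30 to 100 kb. It was 30.4% of 789 from 100 to 300 kb, and 30 of the 100 very long genes were called. In that test, length of span did not separate genes by how often they were called. The median level per kb of exon fell with span above 10 kb, from 11.04 CPM per kb at 10 to 30 kb through 7.20 and 4.70 to 2.96 CPM per kb in the very long genes, and it was 8.27 CPM per kb under 10 kb.

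Median fold changes did move with span in some comparisons. In DP cells from HH18 to HH25 the median rose from -0.17 under 10 kb through 0.28, 0.50 and 0.74 to 0.98 in the very long genes. In HH18 E2 against negative cells it was 0.10, -0.08, 0.02, 0.17 and 0.57 in the same order. In negative cells from HH18 to HH25 it was 0.29 under 10 kb and then climbed from -0.51 through -0.29 and 0.12 to 0.49. In HH25 DP against negative cells it was -0.51 under 10 kb and between 0.64 and 0.78 in all longer classes, so there the very long genes did not stand apart from genes of 10 kb or more. In that comparison the shares called higher were 7.0%, 20.5%, 18.8%, 15.5% and 12.0% in the same order, and those called lower were 17.5%, 4.79%, 3.14%, 2.28% and 1.0%. From 10 kb upward both shares were thus smaller in each longer class. These medians and shares of classes are descriptions with no test.

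**Figure D5:**
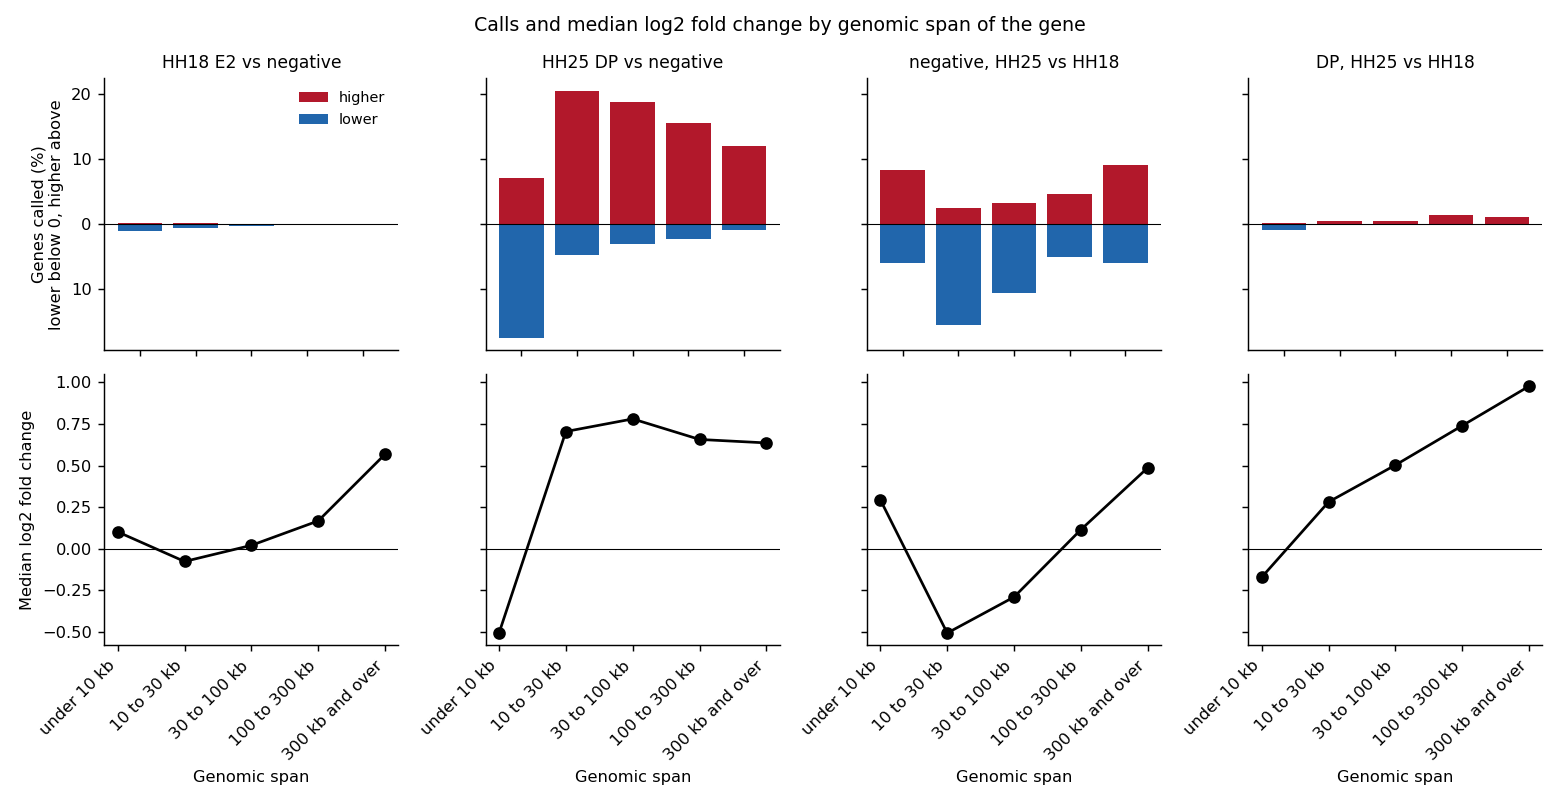
Percent of genes called higher (red, above 0) and lower (blue, below 0), and median log2 fold change (points), for 5 classes of genomic span in 4 comparisons. The median in DP cells from HH18 to HH25 rises in every class up to 0.98 in genes of 300 kb and over, while in HH25 DP against negative cells it is level from 10 kb upward.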

How the data were processed

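The values deposited by the authors are raw counts of reads over the exons of each gene, whole numbers without normalization, in 16 libraries (other count columns: 0). The submitters' processing notes list STAR 2.4.2a, Subread 1.4.5, featureCounts and DESeq2, and the build galGal5. How strand and multi-mapping reads were treated is not given in the sources used here. Per the labels' protocols, sorted cells gave total RNA, and cDNA was amplified by a full-length low-input kit before Nextera XT libraries. No unique molecular identifiers are named; intervals and lower bounds therefore describe counting error alone.

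Spans, exon lengths (the Length column) and overlaps were computed from the exon coordinates in the table. The quasi-likelihood F test of edgeR 4.0.16 (R 4.3.3) was run on the counts with TMM scaling and the default filterByExpr for the 8 groups, which kept 14676 genes, among them all 100 members. A single fit of 8 group means held the 16 libraries. Calls needed an adjusted p under 0.05, by Benjamini-Hochberg over all genes tested. Each SE on the log2 scale was worked back from the test, as the absolute log2 fold change divided by the square root of F. It is not a separate estimate of error. The fit was tested on simulated data. There were 12 comparisons of 2 groups, 3 tests of a difference between contrasts and 1 over all groups. Alternatives were DESeq2 1.42.0, its size factors, no filter, only the groups compared, the replicate number as a block, each library left out, a span minimum of 500 kb, and sums without the 3 members with the most counts.

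Pooled ratios use TMM-scaled library sizes with exact 95% intervals; against 0 counts the fold is a lower bound with 3 counts set for the group as a whole. The members, lists and tests were chosen with earlier results of these data known. The named members are, in each comparison, the 2 called members of highest and the 2 of lowest fold change (with 5 CPM or more as the mean of the higher group), the 5 highest per kb of exon, the 5 longest, and those called in a difference between contrasts; the rule had asked for 3 per direction and was shortened because the files do not pair identifiers with names. For the same reason the gene lists and cell type markers were not looked up, and no sequence is printed.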

Additional observations from a re-analysis of the deposited data

Results flagged for a closer look

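In 7 very long genes the difference between DP and negative cells changed from HH18 to HH25. The change itself was tested in the fit over all 16 libraries (log2 scale, adjusted p over all genes tested). The same test called 14.5% of all genes tested, a larger share than among the very long genes. The count of 7 is therefore not read as particular to very long genes. ENSGALG00000040256 changed by 11.27 ± 1.64 (SE, adjusted p = 0.0035); this fitted value depends on the prior count, since HH25 negative cells had no count, and DP and negative cells differed by -0.22 ± 0.79 at HH18. ENSGALG00000030054 changed by 3.43 ± 0.67 (adjusted p = 0.0086), from -1.32 ± 0.47 at HH18 to 2.11 ± 0.48 at HH25. Both were called under every alternative run.

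The other 5 were not. ENSGALG00000005509 changed by 2.58 ± 0.62 (adjusted p = 0.017), from 0.08 ± 0.43 to 2.66 ± 0.46, and ENSGALG00000012677 by 1.50 ± 0.47 (adjusted p = 0.047), from -0.06 ± 0.33 to 1.44 ± 0.34. ENSGALG00000042645 changed the other way, by -2.78 ± 0.75 (adjusted p = 0.026), from 0.90 ± 0.53 to -1.89 ± 0.53. ENSGALG00000011744, with a change of 2.16 ± 0.67 (adjusted p = 0.047), and ENSGALG00000004304, with 1.19 ± 0.37 (adjusted p = 0.048), were called at neither stage alone. Leaving out 1 library ended each of these 5 calls, among them HH18 negative library 1, HH18 negative library 2, HH25 DP library 3 and HH25 negative library 1 in ENSGALG00000005509, ENSGALG00000012677, ENSGALG00000042645, ENSGALG00000011744 and ENSGALG00000004304 alike. For ENSGALG00000004304 leaving out any 1 of the 8 libraries did so.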

How the results depend on the processing

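No value of a named member reversed: of 363 alternative values of 40 calls, 221 kept their call, 142 lost it and 0 changed sign, and 7 calls held under every alternative. Of 160 alternative counts of members called, 90 were within 1.5 times the reported count. Shares over all genes are given for the main fit and DESeq2 only. Counts under the other alternatives are therefore not read as a change in the members alone. DESeq2 gave more calls throughout, among members as among all genes with an adjusted p (shares in parentheses): 13 (6.25%), 2 (3.74%) and 13 (11.2%) for E2 against negative cells at HH10, HH18 and HH25, 4 (3.31%) and 26 (35.2%) for DP against negative and 4 (3.66%) and 11 (23.6%) for DP against E2 cells at HH18 and HH25, 27 (15.96%) and 5 (4.16%) for E2 cells over the first and second stage step, 11 (9.02%) for DP cells, 9 (8.74%) and 33 (27.5%) for negative cells, 58 (52.2%) over the 8 groups, and 2 (6.08%), 14 (25.6%) and 3 (2.89%) for the changes in DP against E2, DP against negative and E2 against negative cells. It gave 93 to 99 members an adjusted p. With no filter on low counts the counts that moved were 2 (HH10 E2 against negative), 1 (HH18 E2 against negative), 1 (HH18 DP against E2), 1 (HH25 DP against E2), 10 (E2, HH10 to HH18), 1 (E2, HH18 to HH25) and 3 (DP). With only the groups compared they were 0, 1 and 0 for E2 against negative cells in stage order, 7 for HH25 DP against E2, 0 and 1 for E2 and 15 and 6 for negative cells in stage order, 0 for DP cells and 2 for the change in DP against negative cells. DESeq2 size factors gave 1 (HH18 E2 against negative), 1 (E2, HH18 to HH25), 5 (negative, HH10 to HH18) and 4 (change in DP against negative). The replicate number as a block gave 2 for HH10 E2 against negative cells; deviations of same-numbered libraries correlated at 0.285 there and at -0.134 to 0.110 elsewhere, and the labels do not say that the numbers pair libraries. Without 1 library, counts ranged from 0 to 6, 0 to 1 and 1 to 5 (E2 against negative), 0 to 0 and 6 to 16 (DP against negative), 0 to 1 and 0 to 1 (DP against E2), 3 to 7 and 0 to 0 (E2 stages), 0 to 1 (DP stages), 1 to 1 and 3 to 11 (negative stages), 20 to 36 (8 groups) and 0 to 0, 2 to 9 and 0 to 1 (the 3 changes). Of 72 alternative medians, 15 moved beyond the spread and 7 had the other sign; with a span of at least 500 kb the medians of HH10 E2 against negative and of negative cells from HH10 to HH18 were 0.71 and 0.59, against -0.09 and -0.39. Summed levels without the 3 members with the most counts were 2296, 2202, 1578, 1990, 2046, 2041, 2373 and 3399 CPM for HH10 negative, HH10 E2, HH18 negative, E2 and DP, and HH25 negative, E2 and DP cells. Over all 100 members the unscaled sums were 2668 in HH18 negative and 3254 in HH25 negative cells, and 3614 in HH25 negative cells with DESeq2 size factors, against 2903 and 3407 with TMM. The cause was not tested in any of these. Of the members under 5 CPM, 2 of 30 were called over the 8 groups, against 28 of 70 above, beside 29.5% of all genes tested at any level. All genes were not split by level here, so this is not read as particular to the members. The part of depth in this was not tested.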

Other observations

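Very long genes that overlapped another gene were called over the 8 groups in 23 of 57 cases and those that overlapped none in 7 of 43. Of all genes tested 29.5% were called, and these were not split by overlap. The split was chosen after the values were seen and was not tested. Their median levels were 17.5 and 8.03 CPM and their median spans 381 and 359 kb. At least 5 CPM was reached by 43 of the 57 and by 27 of the 43. The part of level in this split was not tested.

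The spread between the 2 libraries of a group was not the same for very long genes as for all genes tested. The median absolute log2 difference was 0.835 against 0.436 in HH18 negative, 1.06 against 0.755 in HH18 DP, 1.004 against 0.782 in HH25 negative and 0.734 against 0.568 in HH25 DP cells. It was 0.532 against 0.521 in HH10 negative and 0.537 against 0.551 in HH18 E2 cells, and smaller for very long genes, 0.465 against 0.603, in HH25 E2 cells.

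Among the 5 members with the highest level per kb of exon, ENSGALG00000009491 (chr5:28406954-28747300, minus strand, 340 kb, 11 exon intervals) ran from 30.03 CPM in HH25 DP library 3 to 82.5 CPM in HH10 E2 library 1 and was not called over the 8 groups (adjusted p = 0.51). ENSGALG00000034590 (chr1:5528711-5974445, plus strand, 446 kb) was called (adjusted p = 0.046) and was highest in the HH18 DP libraries, with 135 and 153 CPM, and lowest in HH25 negative library 1, with 18.2 CPM.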
